A study of Mus musculus with 6 samples.

Results

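Axonemal dynein heavy chains are the very large motor proteins that slide the microtubules of cilia and of the sperm tail. The 10 genes described here are Dnah1, Dnah2, Dnah3, Dnah6, Dnah7a, Dnah7b, Dnah8, Dnah10, Dnah12 and Dnah17, found by their symbols among the 57010 gene IDs of the count table. All 10 symbols matched. They were compared with 8 other genes of the dynein heavy chain family and with their partner proteins of the axoneme. Abundance is given as CPM, a gene's counts set against the size of its library, where TMM scaling corrects that size for differences in composition.

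The RNA came from immunoprecipitates of PNMA4, a protein derived from a retrotransposon capsid gene and named Moap1 in mouse gene tables. Each of the 6 libraries began with lysate of 8 testes collected at 3 months. Material resting above 70% sucrose was separated on iodixanol, and an antibody to PNMA4 with Protein A beads was added to fractions 8 and 9. The wild-type group holds 3 libraries of C57BL/6J mice, and the group lacking PNMA4 holds 2 libraries of Pnma4 knockout mice and 1 library of mice lacking both Pnma1 and Pnma4. That double knockout library is replicate 3 of its group. Every library is a pool of testes, and the genetic background of the mice lacking PNMA4 is not stated in the labels. The lysates' own RNA is not analysed here, and levels are therefore abundances on the beads. A difference could reflect recovery on the beads, fewer cells of a type or less RNA per cell, which cannot be told apart in such pools.

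In the axoneme, outer dynein arms set beat frequency and inner dynein arms shape the bend. In mouse sperm the outer arm is built on the heavy chains Dnah8 and Dnah17, while the airway and nodal cilia use Dnah5, Dnah9 and Dnah11. Dnah2 and Dnah10 form the inner arm dynein f, which carries a pair of heavy chains. Dnah1, Dnah3, Dnah6, Dnah7a, Dnah7b and Dnah12 belong to inner arms with a single motor head. Human variants in several of these genes cause malformed or immotile sperm flagella. Developing germ cells transcribe the genes from the meiotic stages on, before the tail is assembled.

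Libraries held 3138657 to 6367930 counts, and the 10 heavy chains took 0.524% to 1.42% of them. The counts of Moap1 were 7, 26 and 27 in the wild-type libraries and 0 in the 3 others. Those of Pnma1 were 0 in the double knockout alone and 76 to 152 elsewhere. The double knockout had the lowest TMM factor, 0.628, against 1.01 to 1.29 in the other 5 libraries. All 14 spermatocyte, all 14 round spermatid and all 14 elongating spermatid markers passed the filter on low counts, so messages of the germ cells of these stages were present.

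Promoter sequences are shown because Dnah7a, Dnah7b and Dnah7c, 3 genes of chromosome 1, are near copies of each other. Their levels varied in parallel among libraries, and the level of Dnah12, a gene of chromosome 14, varied with them. So did that of Dync2h1, a heavy chain gene that is not a member, so the pattern is not particular to these genes. RefSeq windows reaching 250 bases before to 50 bases after the annotated start (build GRCm38.p6) were found for 9 of the 10 genes, Dnah3 being the exception. Windows were searched on both strands for an X-box, the palindromic site of RFX transcription factors, spelled GTTGCTNAGCAAC. Its letters were taken from the Dnah7a window after the sequences were seen, as the longest inverted repeat around a single central base, written N. Capitals mark it. Dnah7a lies at chr1:53706819-53706873 on the minus strand, with the X-box starting at position -57 from the annotated start. Dnah7b lies at chr1:46066797-46066851 on the plus strand, with the site at -24. Dnah7c lies at chr1:46425417-46425471 on the plus strand, with the site at -69. Dnah6 lies at chr6:73221645-73221699 on the minus strand, with the site at -36. The stretches of Dnah7a, Dnah7b and Dnah6 lie inside the gene spans given below. That of Dnah7c begins just before its gene span, which starts at 46425428, and its X-box lies inside the span. The annotated start of these windows is therefore not the outer end of the gene.
Dnah7a: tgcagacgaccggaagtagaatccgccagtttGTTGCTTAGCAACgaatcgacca
Dnah7b: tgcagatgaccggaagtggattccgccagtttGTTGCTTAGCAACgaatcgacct
Dnah7c: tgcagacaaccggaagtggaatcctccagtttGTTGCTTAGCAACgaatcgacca
Dnah6: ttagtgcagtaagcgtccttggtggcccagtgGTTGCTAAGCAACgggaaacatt
Over these 55 bases Dnah7a shared 51 bases with Dnah7b, 52 with Dnah7c and 20 with Dnah6. The X-box stood in 3 of the 9 windows (Dnah6, Dnah7a and Dnah7b) and in 24 of all 32851 windows (0.0731%). The Dnah7a match was fixed by the choice of letters, and Dnah7b is a near copy. Among the members this leaves only Dnah6 as a separate match, so the share of members cannot be set against that of all windows. The shorter letters GTTGCC were in 3 of the 9 windows (Dnah7a, Dnah7b and Dnah10) and in 12.5% of all windows. The cyclic AMP response element TGACGTCA was in 1 of the 9 (Dnah6) and in 1.79% of all windows. The Dnah12 window held none of these motifs. A match in these letters is a description and not a bound site.

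The windows of the outer arm genes Dnah8 and Dnah17 held none of these 3 motifs. The 100 bases before the annotated start are shown for both because these genes are the most abundant members. The Dnah8 stretch is chr17:30626836-30626935 on the plus strand, and the Dnah17 stretch is chr11:118129220-118129319 on the minus strand. The Dnah17 stretch lies inside the gene span given below, so its window's annotated start is not the outer end of the gene.
Dnah8: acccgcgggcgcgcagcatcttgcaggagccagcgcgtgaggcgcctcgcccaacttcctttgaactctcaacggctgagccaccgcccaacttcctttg
Dnah17: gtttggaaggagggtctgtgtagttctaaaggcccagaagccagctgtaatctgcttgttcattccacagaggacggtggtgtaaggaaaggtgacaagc

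Dnah8 was the most abundant heavy chain in all 6 libraries, and Dnah17 came next in all 6. By mean CPM over the libraries, the order was Dnah8 at 5462, Dnah17 at 1258, Dnah2 at 514, Dnah1 at 475, Dnah12 at 424, Dnah7b at 407, Dnah3 at 315, Dnah6 at 313, Dnah10 at 309 and Dnah7a at 267. Among all genes of a library, Dnah8 ranked between 3 and 6 by CPM and Dnah17 between 21 and 27. The cytoplasmic heavy chain Dync1h1, which is not a member, stood between them at 1925 to 2455 CPM. CPM is not divided by transcript length, and coding lengths were not used here. The order is therefore one of counts, in which a long message collects more than a short one.

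Only the first steps of this order were wider than the spread between libraries. Dnah8 counts exceeded those of Dnah17 by 2.65 to 6.29 times, and Dnah17 counts exceeded those of Dnah2 by 2.3 to 2.57 times, without overlap of the CPM ranges at either step. From Dnah2 downward the CPM ranges of neighbouring genes overlapped. Dnah2 was above Dnah1 in 6 of 6 libraries, but by only 1.01 to 1.15 times. Dnah1 was above Dnah12 in 4 of 6, Dnah12 above Dnah7b in 5 of 6, and Dnah7b above Dnah3 in 6 of 6, by 1.01 to 1.63 times. Dnah3 was above Dnah6 in 4 of 6, Dnah6 above Dnah10 in 3 of 6 and Dnah10 above Dnah7a in 4 of 6.

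**Figure D1:**
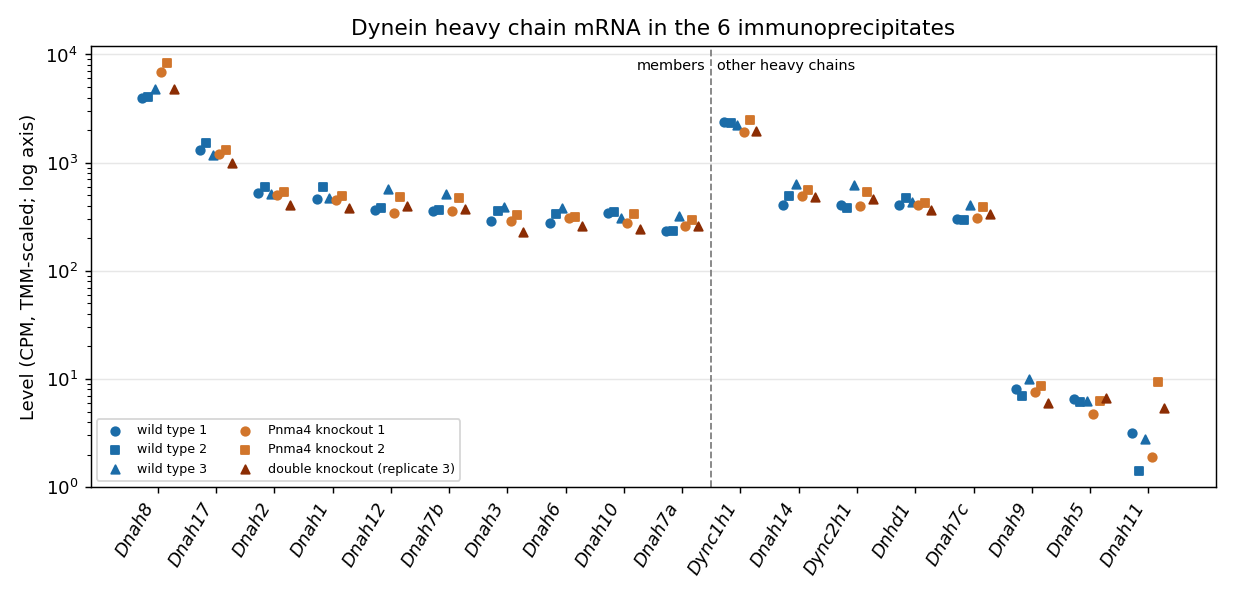
CPM of each dynein heavy chain gene in each of the 6 libraries on a log axis, with 1 point for each library; blue points are wild type, orange points Pnma4 knockout and brown triangles the double knockout. Dnah8 stands at 3921 to 8300 CPM and Dnah17 at 995 to 1534 CPM, above the other 8 members, while Dnah5, Dnah9 and Dnah11 on the right lie near the foot of the axis.

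The comparison of wild type with the group lacking PNMA4 asks which RNA is recovered in excess when the antibody has its target. None of the 10 heavy chains passed the threshold, an adjusted p below 0.05 over 13413 tested genes by edgeR's quasi-likelihood test with Benjamini-Hochberg adjustment. Over all genes 8 passed (0.0596%). The edgeR adjusted p was 1.00 for each of the 10. By DESeq2 and by limma-voom 0 of 10 passed as well. At an unadjusted p below 0.05, which 2.92% of all tested genes met, 1 member stood out, Dnah8, and its level was lower in wild type, the direction of 1.65% of all tested genes at that p.

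Dnah8 (ENSMUSG00000033826, chromosome 17, 30626935 to 30875762) encodes the gamma-type heavy chain of the outer arm. Wild-type replicates 1 to 3 held 14916, 31828 and 31139 counts of it, and the libraries lacking PNMA4 held 21643, 58098 and 14436. Scaled, these were 3921, 4071 and 4784 CPM against 6868, 8300 and 4827 CPM. The groups did not overlap on this scale, but the double knockout lay just above wild-type replicate 3, and its place rests on its TMM factor of 0.628. The groups were also apart with RLE scaling, while with upper-quartile scaling the double knockout stood at 4774 CPM, below the 4796 CPM of wild-type replicate 3. With no scaling factors the wild-type levels of Dnah8 were 4011, 5244 and 5160 CPM and those lacking PNMA4 6943, 9194 and 3033 CPM, so that the double knockout lay below all wild-type libraries and the groups overlapped. With TMM scaling, Dnah8 was the 1 of the 10 members whose groups did not overlap, beside 6.69% of all tested genes in either direction and 3.41% with wild type lower. The mean of the wild-type libraries was 4259 ± 461 CPM and that of the libraries lacking PNMA4 6665 ± 1745 CPM (SD, n = 3 each). By the edgeR fit the level was 1.57-fold higher without the protein. The log2 fold change of wild type over lacking PNMA4 was -0.65, with an SE of 0.27, a 95% interval of -1.21 to -0.08 and an unadjusted edgeR p of 0.0268 (adjusted p = 1.00). Without the double knockout it was -0.83, and without Pnma4 knockout replicate 2, the library with the highest level, it was -0.46. When no scaling factors were used it was -0.41, while the median of all genes moved from 0.01 to 0.315. Over all 14 alternatives the edgeR, DESeq2 or limma adjusted p ran from 0.448 to 1.00.

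Dnah17 (ENSMUSG00000033987, chromosome 11, 118021723 to 118130719) encodes the beta-type heavy chain that sits beside Dnah8 in the outer arm of sperm. Its wild-type counts were 4990, 11995 and 7730, set against 3778, 9232 and 2975 in the group lacking PNMA4. As CPM they were 1312, 1534 and 1188 against 1199, 1319 and 995, so that the groups overlapped. The means were 1344 ± 176 and 1171 ± 164 CPM (SD, n = 3 each), with a log2 fold change of 0.20 and a 95% interval of -0.28 to 0.68. The neighbouring gene Pgs1 overlaps its end on the map, but held at most 203 counts in any library.

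The ratio of both outer arm genes within a library is independent of library scaling. Dnah8 had 2.99, 2.65 and 4.03 counts for each count of Dnah17 in the wild-type libraries, against 5.73, 6.29 and 4.85 in those lacking PNMA4. Every library lacking PNMA4 was above every wild-type library. The means were 3.22 ± 0.717 and 5.62 ± 0.726 (SD, n = 3 each). By mean log2 the ratio was 1.76-fold higher without PNMA4. The two-sided exact permutation test gave p = 0.1, the smallest value that 3 against 3 libraries allow, so this design could not pass 0.05 by that test.

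The same held for Dnah8 against each other member. Its ratio to each of the other 9 genes had groups that did not overlap, as did its ratio to 32% of all tested genes with a count in every library. By mean log2 the 9 ratios were 1.47-fold (Dnah7a) to 1.89-fold (Dnah3) higher without PNMA4. These 9 ratios share the counts of Dnah8 and are not separate results. Against the cytoplasmic heavy chain Dync1h1, the Dnah8 ratio was 1.64, 1.74 and 2.16 in the wild-type libraries and 3.57, 3.38 and 2.46 in the others. Dnah8 made up 48.4% ± 2.23 of the 10 genes' counts in the wild-type group and 61.8% ± 3.62 in the group lacking PNMA4 (SD, n = 3 each). Of the counts of the 9 others, Dnah17 took 29.8% ± 3.77 and 29% ± 1.02, a difference smaller than the spread between libraries.

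**Figure D2:**
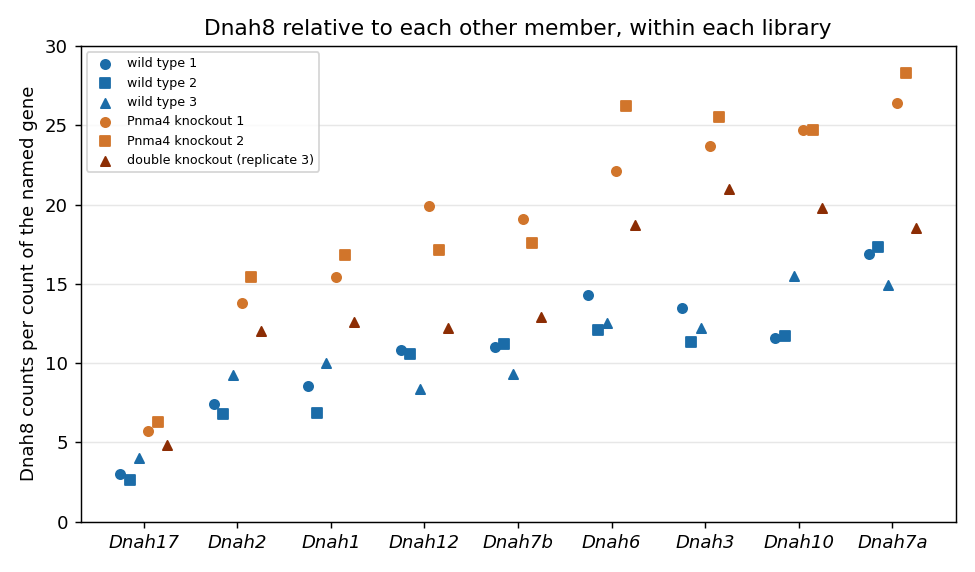
Counts of Dnah8 for each count of the gene named on the horizontal axis, within each library (vertical axis, linear from 0); blue points are wild type, orange points Pnma4 knockout and brown triangles the double knockout. For all 9 genes the 3 libraries lacking PNMA4 sit above the 3 wild-type libraries, with the double knockout the lowest of its group; for Dnah17 the values run from 2.65 to 4.03 in wild type and from 4.85 to 6.29 without PNMA4.

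Dnah2 (ENSMUSG00000005237, chromosome 11, 69420807 to 69549108) and Dnah10 (ENSMUSG00000038011, chromosome 5, 124725085 to 124834308) are the partners of inner arm dynein f. Wild-type levels of Dnah2 were 529, 597 and 517 CPM, and levels without PNMA4 were 497, 540 and 404 CPM. Dnah10 stood at 339, 348 and 309 CPM against 279, 336 and 244 CPM. Both had overlapping groups with the double knockout lowest. Their log2 fold changes were 0.19 (SE 0.21) and 0.21 (SE 0.21). The count of Dnah2 for each count of Dnah10 kept between 1.56 and 1.78 in all 6 libraries.

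Dnah1 (ENSMUSG00000019027, chromosome 14, 31260375 to 31325891) encodes an inner arm heavy chain, and its loss in human sperm disorders the axoneme. Wild-type levels were 459, 592 and 476 CPM, and those lacking PNMA4 were 447, 495 and 382 CPM. The groups overlapped, with a log2 fold change of 0.21 and a 95% interval of -0.24 to 0.65. Dnah3 (ENSMUSG00000052273, chromosome 7, 119921332 to 120095297) had the highest log2 fold change of the 10, 0.30 with an interval of -0.15 to 0.74. It stood at 291, 359 and 391 CPM with PNMA4 present and at 290, 326 and 230 CPM in its absence. Dnah6 (ENSMUSG00000052861, chromosome 6, 73017603 to 73222227) stood at 274, 338 and 382 CPM against 311, 316 and 257 CPM. Wild-type replicate 1 was the lowest wild-type library for both Dnah3 and Dnah6, and both genes overlapped between the groups.

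Dnah7a (ENSMUSG00000096141, chromosome 1, 53396995 to 53707301), Dnah7b (ENSMUSG00000041144, chromosome 1, 46066071 to 46373551) and Dnah12 (ENSMUSG00000021879, chromosome 14, 26691554 to 26892719) had the fold changes nearest to 0. Dnah7a stood at 232, 235 and 321 CPM in wild-type libraries and at 260, 293 and 261 CPM in those lacking PNMA4, with a log2 fold change of -0.05 (SE 0.21). Dnah7b stood at 357, 363 and 514 CPM against 360, 471 and 375 CPM, with 0.03 (SE 0.22). Dnah12 stood at 362, 382 and 571 CPM against 344, 485 and 397 CPM, with 0.10 (SE 0.23). In all 3 genes wild-type replicate 3 was highest and Pnma4 knockout replicate 2 was the highest of its group. The sign of these 3 small values turned under some alternatives, being positive in 4 of 14 for Dnah7a, 10 of 14 for Dnah7b and 11 of 14 for Dnah12. Reads of Dnah7a, Dnah7b and Dnah7c can be split or lost between near copies during counting, so their separate levels are uncertain. With Dnah7a and Dnah7b summed to 1 gene, the log2 fold change was 0.00.

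Among the 10 genes 8 had a positive log2 fold change, with a median of 0.18, beside 52% of all tested genes and a median of 0.01. Without Dnah8 it was 8 of 9, with a median of 0.19. For 9 of the 10 the 95% interval lay within a 2-fold change either way, as it did for 71.1% of all tested genes, and Dnah8 was the exception. The summed level of the 9 genes without Dnah8 was 4156, 4749 and 4669 CPM in the wild-type libraries, against 3987, 4582 and 3545 CPM in the others. The groups overlapped, with the double knockout lowest.

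**Figure D3:**
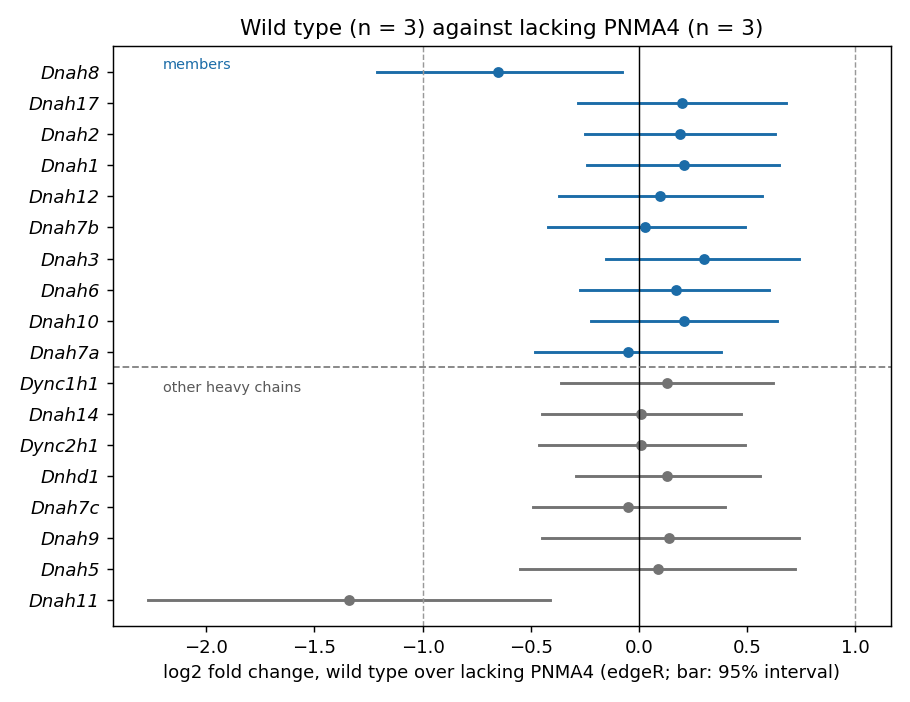
Log2 fold change of wild type over lacking PNMA4 for each heavy chain gene (horizontal axis, edgeR, n = 3 against 3), with the 95% interval as a bar, members in blue and other family genes in grey; dashed lines mark a 2-fold change. The Dnah8 interval of -1.21 to -0.08 lies below 0, the other 9 members' intervals span 0, and Dnah11 lies at -1.34 on few counts.

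Libraries of the same group differed by more than the groups did for several members, and they differed in different genes. From wild-type replicate 2 to replicate 3 the CPM of Dnah12 was 1.49 times as high, that of Dnah7b 1.42 times and that of Dnah7a 1.37 times. Outside the members Dync2h1 was 1.65 times and Dnah14 1.31 times as high, while Dync1h1 was at 0.95 and Dnhd1 at 0.913. Over the same pair, Dnah17 was at 0.774, Dnah1 at 0.805, Dnah2 at 0.865 and Dnah10 at 0.888 of the level in replicate 2. Dnah8, Dnah6 and Dnah3 were between, at 1.18, 1.13 and 1.09 times. Between the Pnma4 knockout libraries, replicate 2 was above replicate 1 for all 10 members. Of the members, Dnah12 at 1.41 times and Dnah7b at 1.31 times again had the highest ratios. Dnah1, Dnah17 and Dnah2 were at 1.11, 1.1 and 1.09 times, and Dnah6 was lowest at 1.02 times. Over all 6 libraries the coefficient of variation was 31.9% for Dnah8 and 12.4% to 20.5% for the other 9.

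**Figure D4:**
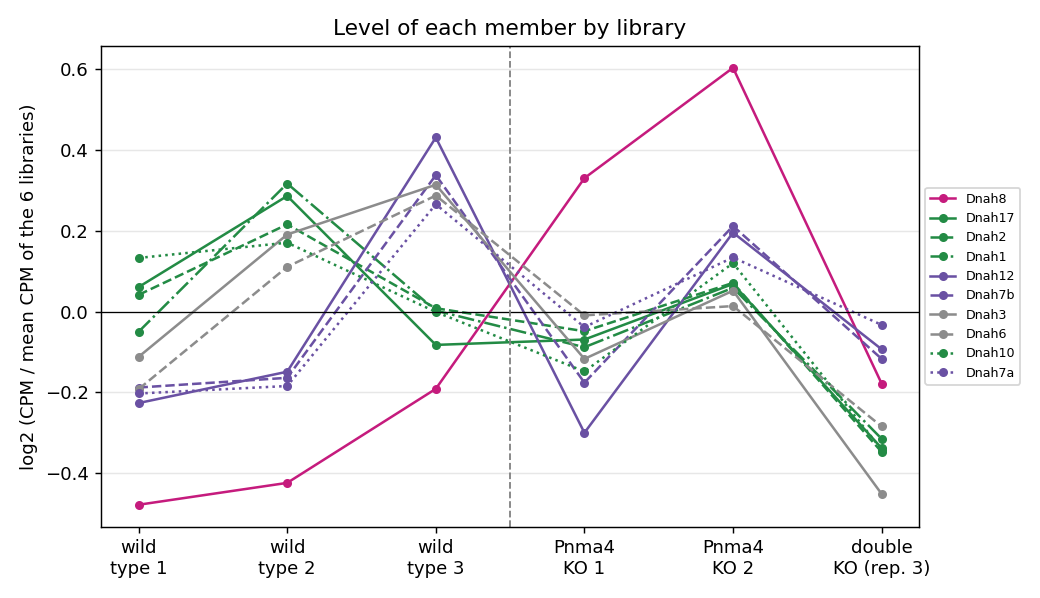
CPM of each member in each library, as log2 of its ratio to that member's mean over the 6 libraries (vertical axis); lines only join the points of a gene. Green marks the 4 genes lower in wild-type replicate 3 than in replicate 2, purple the 3 genes over 1.3 times higher there, grey the 2 genes between, and pink Dnah8, which is the lowest gene in wild-type replicates 1 and 2 and the highest in both Pnma4 knockout libraries.

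The double knockout was set against both Pnma4 knockout libraries to see whether the control genotypes differ for these genes. It is 1 library, assumed in the edgeR fit to vary like the others. None of the 10 members passed an adjusted p below 0.05, beside 10 of all tested genes (0.0746%). At an unadjusted edgeR p below 0.05 there were 0 members as well, beside 6.19% of all tested genes, and DESeq2 called 0 at its adjusted threshold. All 10 had a negative log2 fold change of double knockout over Pnma4 knockout, from -0.65 (Dnah8, SE 0.41, unadjusted p = 0.126, edgeR adjusted p = 0.947) to -0.06 (Dnah12), with a median of -0.32. Of all tested genes 50.5% were negative, with a median of -0.01. Without Pnma4 knockout replicate 2 the values of Dnah7b and Dnah12 turned to 0.03 and 0.18. Markers of other testis cells were higher in this library with TMM scaling. Its TMM factor of 0.628 raises every CPM of this library, and sums without scaling factors were not compared. The 12 Leydig cell markers summed to 497 CPM in the double knockout and to 209 to 281 CPM in the other 5 libraries. All 11 that were tested had a positive log2 fold change of double knockout over Pnma4 knockout. The 15 Sertoli cell markers summed to 472 CPM against 220 to 318 CPM, and all 13 tested genes had a positive log2 fold change over Pnma4 knockout. Among the Sertoli markers Amh had at most 2 and Fshr at most 6 counts in any library, while Clu had at least 409 and Amhr2 at least 144. The Leydig markers Star and Cyp17a1 had over 130 counts in all libraries. The part of these cells in the members' lower levels was not tested.

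The rest of the heavy chain family was described for comparison, and none of its 8 genes passed the edgeR threshold. Dnah11 was the 1 gene of these with an unadjusted p below 0.05. Dync1h1, the motor of cytoplasmic dynein, was at 2314 ± 87.4 CPM with wild-type testes and 2113 ± 296 CPM with testes lacking PNMA4. Dync2h1, the motor of retrograde transport inside cilia, was at 469 ± 134 and 464 ± 65.9 CPM. Dnah14, a family member of little known role, was at 511 ± 118 and 509 ± 40.9 CPM, and Dnhd1, a heavy chain-like gene needed for sperm flagella, at 437 ± 36.3 and 399 ± 29.6 CPM (SD, n = 3 each throughout). Their log2 fold changes were 0.13, 0.01, 0.01 and 0.13. Dnah7c, the near copy beside Dnah7b, was at 334 ± 63.6 and 344 ± 43.6 CPM, and its ratio to Dnah7b was narrow, with 1.12 to 1.26 counts of Dnah7b for each count of Dnah7c.

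The outer arm heavy chains of airway and nodal cilia were scarce. Dnah5 had 25, 48 and 41 wild-type counts, against 15, 44 and 20 in the other group. Dnah9 had 31, 54 and 65 against 24, 60 and 18. Their means of 5.91 to 8.35 CPM in either group lie far below those of the sperm outer arm genes Dnah8 and Dnah17. Dnah11 had 12, 11 and 18 counts against 6, 66 and 16, with Pnma4 knockout replicate 2 standing apart. Its log2 fold change of -1.34 (SE 0.45, unadjusted p = 0.00651, edgeR adjusted p = 1.00) was -0.61 without that library. The gene Cdca7l, with 24 to 72 counts, overlaps Dnah11 on the map, and the strand setting of the counting is not given. Of the 14 markers of multiciliated duct epithelium, which include these 3 heavy chains, 6 were tested. The most abundant was Muc16, a membrane mucin, with 142, 632 and 518 wild-type counts and 172, 350 and 89 in the other group (65.9 ± 24.8 and 44.8 ± 13.2 CPM, log2 fold change 0.56, unadjusted p = 0.043, edgeR adjusted p = 1.00). Epcam, an epithelial adhesion protein, had 13 to 67 counts. Scgb3a2 was at 0 in all libraries, and the multiciliation regulators Mcidas and Gmnc had at most 1 count. The 14 markers summed to 67.8 to 114 CPM in wild-type libraries and to 58.9 to 85.7 CPM in the others.

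Partner genes of the dynein arms were taken from lists, and no gene of these lists passed the edgeR threshold between wild type and the group lacking PNMA4. At an unadjusted p below 0.05 there was 1 intermediate or light chain gene and 1 anchor of the inner arms, and 0 docking, assembly or transcription genes. Of 24 intermediate and light chain genes, which hold the heavy chains together at the base of an arm, 19 were tested and 11 had a positive log2 fold change (median 0.05). The most abundant were Dnai4, at 65 ± 6.21 and 70.4 ± 7.56 CPM, and Dnai3, at 62.4 ± 11.6 and 70.7 ± 5.05 CPM. All 6 outer arm docking genes, whose products seat the outer arm on the doublet, were positive (median 0.16), among them Odad4 at 88.7 ± 24.7 and 80.2 ± 5.71 CPM and Ccdc63 at 57.3 ± 14 and 50 ± 2.62 CPM. These differences were smaller than the spread between libraries. The summed level of the docking genes was 212 to 315 CPM in wild-type libraries and 213 to 245 CPM in the others, so the groups overlapped.

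Of 22 assembly factors, which fold and preassemble the arms in the cytoplasm, 21 were tested and 14 were positive (median 0.10). Dnaaf1 was at 385 ± 100 and 324 ± 50.2 CPM, and Dnaaf9 at 112 ± 3.05 and 104 ± 13.1 CPM. Of 28 anchors and regulators of the inner arms, 27 were found in the table, 26 were tested and 19 were positive (median 0.13), with Cfap43 at 372 ± 32.3 and 346 ± 30.3 CPM and Cfap206 at 229 ± 26.4 and 219 ± 12.2 CPM. Cfap43 belongs to the tether that links the inner arm f to the doublet, and Cfap206 helps to dock a radial spoke and an inner arm. Of 8 transcription regulators of motile cilia 3 were tested, and all 3 were positive (median 0.09), including Rfx2 at 292 ± 83.9 and 256 ± 41.3 CPM. Rfx2 belongs to the factor family that binds X-boxes such as those shown for Dnah7a and Dnah6, and Foxj1, the master regulator of motile cilia, was at 47.1 ± 15.5 and 44.1 ± 1.41 CPM.

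Germ cell markers of the stages that make these messages also did not pass the edgeR threshold, and 1 spermatocyte marker and 0 spermatid markers had an unadjusted p below 0.05. Of the 14 spermatocyte markers 8 were positive (median 0.07), with Stag3, a meiotic cohesin subunit, at 389 ± 74 and 373 ± 11.5 CPM and Piwil1, a piRNA-binding protein, at 387 ± 36 and 317 ± 49.2 CPM. Of the 14 round spermatid markers 8 were positive (median 0.04), with Tdrd6, a chromatoid body protein, at 1561 ± 50.8 and 1460 ± 212 CPM and Spag6l, a central pair protein, at 105 ± 2.88 and 121 ± 14.5 CPM. Of the 14 elongating spermatid markers 8 were positive (median 0.02), with Odf2, an outer dense fibre protein, at 1085 ± 289 and 960 ± 56.2 CPM and Akap3, a fibrous sheath protein, at 472 ± 85 and 465 ± 32.6 CPM. The summed levels of all 3 stages overlapped between the groups. The Leydig cell median was -0.60 (3 of 11 positive) and the Sertoli cell median -0.34 (3 of 13 positive), with the double knockout as given above. At an unadjusted edgeR p below 0.05 there were 4 of the 11 Leydig markers and 1 of the 13 Sertoli markers, beside 2.92% of all tested genes. The 2 tested epididymis markers were also below it. As 8 of the 10 epididymis markers had at most 3 counts in any library, this gives no share to compare. Cyp17a1, a steroid-producing enzyme of Leydig cells, was at 38.9 ± 0.846 and 71.8 ± 50.1 CPM, and Star, which carries cholesterol into their mitochondria, at 43 ± 4.34 and 42.9 ± 4.18 CPM. Clu, a secreted chaperone of Sertoli cells, was at 99.7 ± 32.1 and 131 ± 58.8 CPM, and Amhr2, the receptor of anti-Müllerian hormone, at 37.3 ± 9.78 and 48.6 ± 22 CPM. Of 10 epididymis markers 2 were tested, and Crisp1, a secreted protein of the epididymal duct, was lower in wild type (0.44 ± 0.254 against 5.79 ± 2.56 CPM, edgeR adjusted p = 0.00244). Its wild-type counts were 2, 5 and 1, so it passed the filter on low counts only through the group lacking PNMA4. The 10 epididymis markers summed to 7.42 to 11.3 CPM in wild type and 13.7 to 21.9 CPM in the Pnma4 knockout libraries. In the double knockout the sum was 27.4 CPM, and the groups did not overlap. Dnah8 was also lower in wild type. With TMM scaling, the double knockout had the highest epididymis sum of its group and the lowest Dnah8 level, at 4827 CPM. The place of its epididymis sum rests on its TMM factor of 0.628. Of the 10 epididymis markers 5 were at 0 in all libraries (Defb2, Adam28, Lcn5, Lcn9 and Spinkl), and Cst8, with 41 to 73 counts, was the other one tested. Leydig sums were 224 to 256 CPM in wild type and 209 to 281 CPM in the Pnma4 knockout libraries, and Sertoli sums 220 to 318 and 229 to 309 CPM. The part of any of these cells in the level of Dnah8 was not tested.

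The genes whose levels followed the summed level of the 10 heavy chains most closely over the 6 libraries, among 1154 genes of at least 100 CPM that are no heavy chains, were Ccni (Pearson r = 0.894), Atxn7l3b (0.877), Dync1li2 (0.871), Tollip (0.849) and Rad54l2 (0.811). These are descriptions over 6 libraries in which all genes share depth and scaling, and the sum is led by Dnah8. Dync1li2, a light intermediate chain of cytoplasmic dynein, stood at 99.4, 97.7 and 109 CPM in wild-type libraries and at 114, 113 and 98.6 CPM in the others. Ccni, a cyclin family gene, stood at 164, 173 and 175 CPM against 194, 191 and 175 CPM.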

How the data were processed

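The authors deposited raw counts per Ensembl gene, used as given. The submitters' processing notes name GRCm38, DESeq2, featureCounts, STAR 2.5.2b and bcl2fastq 2.20, with roles and settings not given in the sources used here. Of 57010 IDs, 1606 lack a symbol. All count columns were matched to samples by name. Counts were tested in edgeR 4.0.16 (R 4.3.3; quasi-likelihood, filterByExpr with minimum count 10 and total 15, TMM, Benjamini-Hochberg at 0.05), leaving 13413 genes. SE is the absolute log2 fold change over the square root of F. Alternatives were DESeq2 1.42.0, limma 3.58.1 voom, other scalings and filters, a replicate block and leaving out each library. On simulated data for wild type against lacking PNMA4 (200 of 13413 genes changed), edgeR recovered 75.7% of 2-fold changes at 100 CPM or more. The labels call the lysates biological replicates. Members and lists were chosen with earlier results of these data known. The rule named all members, other heavy chains, genes of each list past the threshold or its 2 most abundant, and the 5 genes most like the members' sum. Coordinates and promoters are RefSeq's. Levels per coding length and a list of long genes, both planned, needed protein lengths, which were not used here.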

Additional observations from a re-analysis of the deposited data

How the results depend on the processing

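No member passed an adjusted p of 0.05 in any alternative run, in either contrast. Against the group lacking PNMA4, Dnah8 kept a negative log2 fold change in 14 of 14 alternatives (-0.83 to -0.41), with an unadjusted p under 0.05 in 9. Dnah1, Dnah2, Dnah3, Dnah6, Dnah10 and Dnah17 stayed positive in all 14. Counts over all genes moved more. For wild type against lacking PNMA4 (3 higher, 5 lower), limma-voom gave 3 lower, no filter 11 higher and 20 lower, and the stricter filter of 50 counts 0 lower. Leaving out 1 library gave 2 to 6 higher and 5 to 14 lower, the 14 without the double knockout. For the double knockout against Pnma4 knockout (5 higher, 5 lower), DESeq2 gave 9 higher, no filter 16 higher and 15 lower, the stricter filter 3 higher, and no scaling 2 higher and 199 lower, with the median of all genes at -0.764 and of members at -1.08. Leaving out 1 library gave 4 to 22 higher and 5 to 13 lower. The cause was not tested. The log2 Dnah8 to Dnah17 ratio of -0.82 ran from -0.99 to -0.69 without 1 library. Same-numbered libraries did not deviate together (correlations 0.0372, -0.0637 and 0.0794), which gave no sign of pairing by number. With 3 libraries in a group, of which 1 is the double knockout, this check cannot exclude it. With the number as a replicate block edgeR called 3 genes higher and 4 lower, 0 members among them, and the ratio gave an exact two-sided sign-flip permutation p of 0.25, the smallest that 3 pairs allow. Members had 688 to 58098 counts in a library. The alternative order per coding length was not run.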

Other observations

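Genes within 500000 bases of Dnah8 were listed after its values were seen. Of the 7 tested neighbours, Glo1, the gene next upstream (chromosome 17, 30592861 to 30612659), encodes a glyoxalase that detoxifies methylglyoxal. Its wild-type counts were 27, 43 and 39, against 40, 82 and 29 in the other group, or 6.2 ± 0.818 and 11.4 ± 1.53 CPM (SD, n = 3 each). With TMM scaling the groups did not overlap in CPM, as in 6.69% of all tested genes in either direction and 3.41% with wild type lower. The place of the double knockout rests on its TMM factor of 0.628. The log2 fold change of Glo1 was -0.90 (SE 0.28, unadjusted p = 0.00326, edgeR adjusted p = 1.00). The other 6 neighbours had log2 fold changes of 0.15 (Zfand3), -0.15 (Btbd9), 0.24 (Umodl1), -0.72 (Abcg1), 0.21 (Rsph1) and 0.08 (Slc37a1), each with an unadjusted edgeR p of at least 0.158 and an adjusted p of 1.00. Rsph1, a radial spoke protein of motile cilia, stood at 197 ± 50.4 and 170 ± 38.5 CPM.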
